A study of Mus musculus with 2 samples.

Results

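The transcription factors that set up and maintain B-cell identity were followed at the RNA level in B cells of Ccr7 knock-out mice. They are Pax5, Ebf1, Tcf3, Pou2af1, Pou2f2, Spib, Spi1, Ikzf1, Ikzf3 and Foxo1. All gene probes that the array files named by these symbols or their older forms were taken, except 2 named Tcf3 that belong to another gene. This gave 17 probes for 10 genes, out of 41174 distinct gene probes on the array and 17679 genes measured, and each probe was read separately. The knock-out animals were of the strain B6.129P2(C)-Ccr7tm1Rfor/J, and the wild-type animals were C57BL/6J. Ccr7 is the chemokine receptor that guides lymphocytes into the T-cell areas of lymph nodes. B cells of both genotypes were sorted from peripheral lymph nodes and were not cultured. RNA of 12 sorted samples, 6 per genotype, was combined in pools of 3, and each of 2 two-colour arrays held 1 knock-out and 1 wild-type pool. The dyes were swapped, with the knock-out in Cy5 on array 1 and in Cy3 on array 2, so n = 2 arrays throughout. No source used here gives the ages of the animals or the gate of the sort.

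In B-cell development the E protein encoded by Tcf3 acts with Ebf1 to switch on the early B-cell programme. Pax5 then holds cells in the lineage by raising B-cell genes and repressing genes of other lineages. The ETS factors Spi1 (PU.1) and Spib, the Ikaros family zinc-finger proteins Ikzf1 (Ikaros) and Ikzf3 (Aiolos), and the octamer-binding factor Pou2f2 (Oct-2) with its coactivator Pou2af1 (OBF-1) work in mature B cells. Foxo1 is a forkhead factor that is held out of the nucleus by PI3K signalling and drives homing receptor genes.

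Probes of 1 gene did not always read alike, and those of Pax5 and Foxo1 are shown as examples in which the means of the brighter and the dimmer probe lay apart. Positions are those of the array files, on mouse build mm8. The probes of a gene are numbered by their signal, probe 1 being the brighter. Bases are given 5′ to 3′ in lower case, with no base singled out. Of Pax5 probe 1 and Foxo1 probe 2 the first 30 bases are given, and the other probes are given in their whole length of 60 bases. Pax5 probe 1 was designed on a cDNA clone and maps to chr4:44546164-44546223 on the minus strand. Pax5 probe 2 was designed on the RefSeq mRNA and maps to chr4:44558582-44591136 on the minus strand, a span of 32555 bases, so it crosses at least 1 exon junction. The probes of Foxo1 were both designed on the RefSeq mRNA. They map to chr3:52434190-52434249 (probe 1) and chr3:52437296-52437355 (probe 2) on the plus strand.
Pax5 probe 1: atgtaattacagcagtgccaatttgccaaa
Pax5 probe 2: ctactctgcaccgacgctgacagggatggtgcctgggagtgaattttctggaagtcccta
Foxo1 probe 1: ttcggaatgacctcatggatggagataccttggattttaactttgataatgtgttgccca
Foxo1 probe 2: ttctgggagaatgttcgctttctggtctat

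B-lineage transcription factor RNA was measured in both genotypes at all 17 probes, each of which was well above background in both channels of both arrays. Ratios below are log2 knock-out over wild type after loess normalization, and levels are log2 intensities scaled between arrays. Levels of different probes are on different scales, so no factor probe's level is set against another's, beyond numbering them by signal. Sums of marker levels given below add probes of unlike scale and are compared only within a list. None of the 17 probes passed an adjusted p of 0.05 in limma, against 31 of the 25966 probes tested on the whole array (0.119%). At an unadjusted p of 0.05, 3 of the 17 passed, against 9.84% of all probes. The Pax5 cDNA probe was lower in knock-out cells (6.13% of all probes passed in that direction). The Pou2af1 probe and Ikzf3 probe 1 were higher (3.7% of all probes). Differences within 1.25-fold in either direction were found at 14 of the 17 probes, against 88.7% of all probes, and 1 probe reached 1.5-fold, against 1.74% of all probes.

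Read by the brightest probe of each gene, 6 of 10 genes had the same sign on both arrays, against 54.2% of the 17679 genes measured. Spib, Spi1, Ikzf1 and Ikzf3 were higher in knock-out cells on both arrays, and Pax5 and Foxo1 were lower. The signs of the means of Spib, Spi1 and Ikzf1 turned under median centring and without within-array normalization, and that of Ikzf3 turned without normalization. With the scanner program's log ratio and with the deposited value table, Spib was lower in knock-out cells on array 1 (-0.03). Ebf1, Pou2af1, Pou2f2 and Tcf3 had opposite signs on the 2 arrays. The median mean ratio was 0.03 over the 10 genes and 0.10 over the 17 probes, against -0.01 over the 25966 probes tested. Centring each array on the median of all its gene spots, in place of loess, put the median of the probes tested at -0.16. Leaving out within-array normalization put it at -0.38. Relative to that median, Spib stood 0.05 and Spi1 0.15 above it under median centring, and Ikzf1 stood at -0.02.

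**Figure D1:**
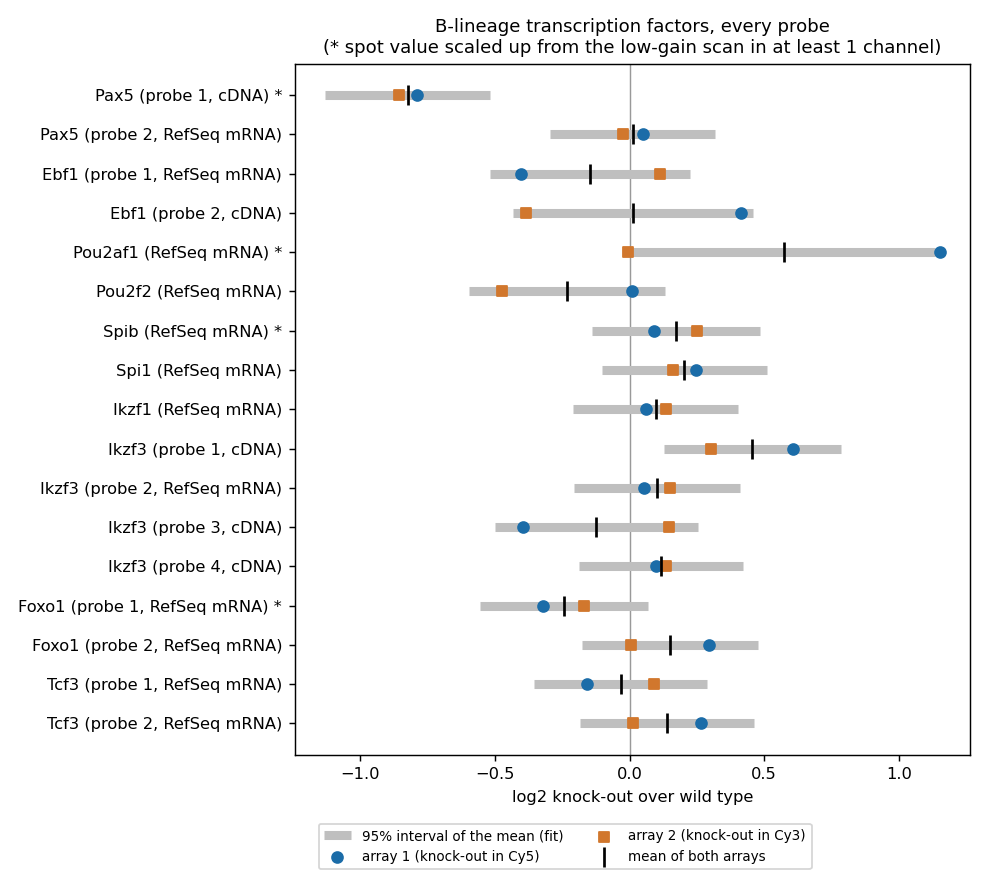
Log2 knock-out over wild type (x axis) at each of the 17 probes (y axis), on array 1 (circles) and array 2 (squares), with the mean (black bar) and its 95% interval from the limma fit (grey). Pax5 probe 1 lies below -0.7 on both arrays and Ikzf3 probe 1 lies above 0.3 on both, while the Ebf1 probes spread to opposite sides of 0.

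The array quality touched these genes unevenly. Each array was scanned at 2 gains, and readings of very bright spots were taken from the low-gain scan and scaled up. Such readings made up at least 1 channel of 1832 of the probes tested (7.06%) and of 4 of the 17 described here, namely Pax5 probe 1, Pou2af1, Spib and Foxo1 probe 1. Among all scaled-up probes the ratios of array 1 and array 2 had a correlation of -0.49 and the same sign at 46.5%. Among the other 24134 probes the correlation was 0.27 and the sign was shared at 55.9%. The part of the low-gain scan in the values of these 4 probes was not tested.

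**Figure D2:**
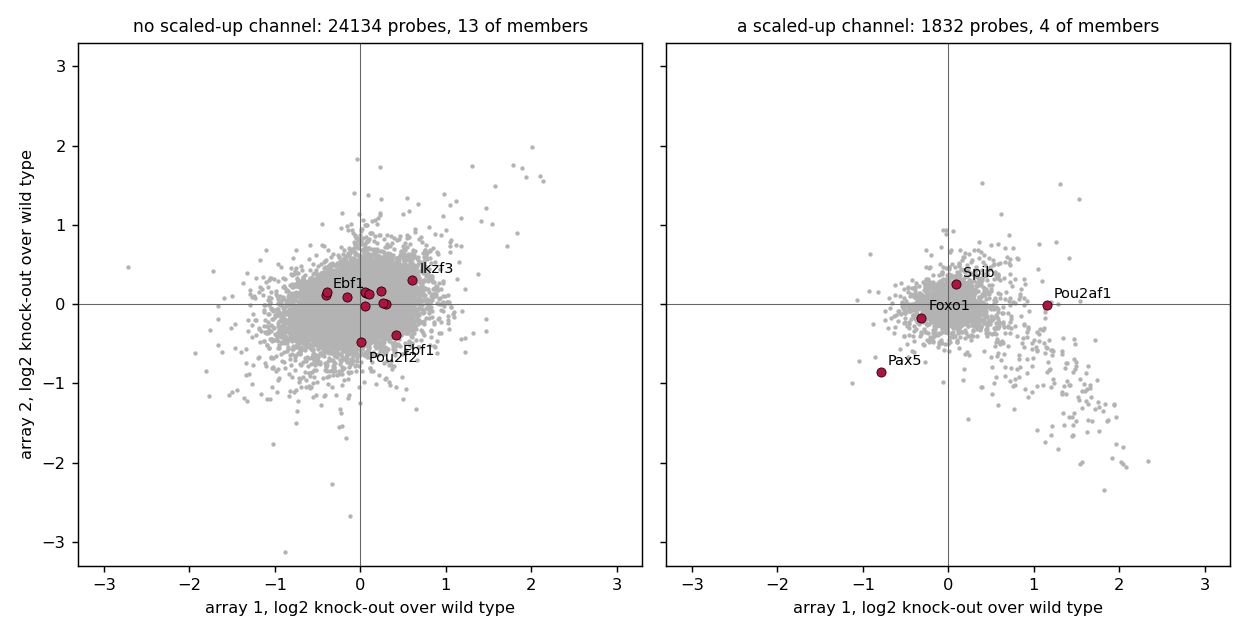
Log2 knock-out over wild type on array 1 (x axis) against array 2 (y axis) for all probes tested (grey) and the B-lineage factor probes (red), split by whether any channel had a scaled-up reading (right) or not (left). Pax5 lies below 0 on both arrays in the right panel, and Pou2af1 lies to the right at about 0 on array 2.

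The Ccr7 probe itself read 11.44 and 11.66 in knock-out cells, against 12.55 and 12.40 in wild-type cells, on arrays 1 and 2. It was lower on both arrays, with a mean log2 ratio of -0.93 ± 0.15 (SE, n = 2) and a limma adjusted p of 0.104. Where the probe lies relative to the targeted sequence was not analysed here. B-cell markers were all present: the 7 markers listed, among them Cd79a, Cd79b and Ms4a1, were above background, and each had a scaled-up channel. Their ratios had opposite signs on the 2 arrays for 6 of the 7. In units of 1000 intensity, their summed level was 549 and 365 in knock-out cells, against 315 and 546 in wild-type cells. The higher sum thus lay in the Cy5 channel on each array, where Cd79b (ratios 1.45 and -1.52) and Ms4a1 (1.75 and -1.23) were the brightest. The part of the dye in these sums was not tested.

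Pax5, the factor of B-lineage commitment, gave different readings at its probes. Pax5 probe 1 read 13.92 on array 1 and 12.54 on array 2 in knock-out cells, against 14.71 and 13.40 in wild-type cells. The knock-out pool was the lower of the pair on each array, although the knock-out level of array 1 was above the wild-type level of array 2. The mean log2 ratio was -0.82 ± 0.13 (SE, n = 2; 95% interval -1.13 to -0.52), or 1.77-fold lower, with a limma adjusted p of 0.107. With an intensity trend and a robust variance prior the limma adjusted p of this probe was 0.0144, and it was then the 1 member probe past the threshold. Both of its channels were scaled up on array 1, where the ratio was -0.79, and neither on array 2, where it was -0.86. The scanner program's own log ratio, on the log2 scale, was -0.76 on array 1 and -0.94 on array 2.

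Pax5 probe 2 read 8.41 and 7.80 in knock-out cells, against 8.36 and 7.82 in wild-type cells. Its ratios were 0.05 and -0.03, with a mean of 0.01 ± 0.13 and a 95% interval of -0.29 to 0.32. The interval does not reach the value of probe 1. The probes lie 12.359 kb apart, and probe 1 was designed on a cDNA clone from aorta and vein that the array annotation calls unclassifiable, while probe 2 comes from the RefSeq mRNA. That the probes of Pax5 disagree was known when the genes were chosen, so the gap is given as a description. The mean ratio of probe 1 was 0.84 below that of probe 2 on the log2 scale (-0.84). Among 3733 genes with exactly 2 measured probes, 23 (0.616%) had a gap of at least this size, and the median gap was 0.147. Among the 1040 of these genes that pair a RefSeq probe with a probe of another kind, 8 (0.769%) did. Which transcript form each probe reads was not tested.

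**Figure D3:**
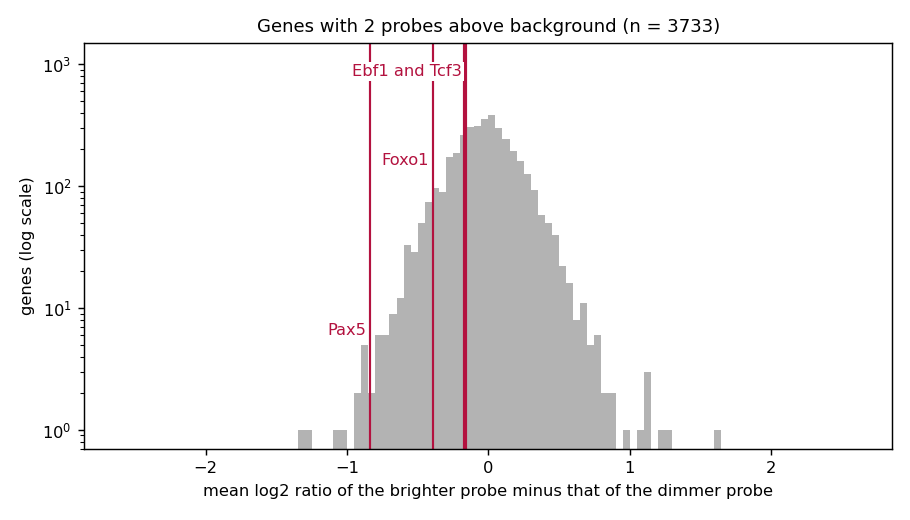
Difference between the mean log2 ratios of the brighter and the dimmer probe (x axis) for 3733 genes with 2 measured probes (y axis, number of genes on a log scale). The lines mark Pax5 at -0.84, Foxo1 at -0.39, and Ebf1 and Tcf3 at -0.16 and -0.17.

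Ebf1, which acts upstream of Pax5, showed no shared direction. Ebf1 probe 1, from the RefSeq mRNA (chr11:44848286-44848345), read 12.50 and 12.55 in knock-out cells, against 12.91 and 12.43 in wild-type cells. Array 1 gave a ratio of -0.40 and array 2 one of 0.11, and the mean was -0.15 ± 0.16 (95% interval -0.52 to 0.23). Ebf1 probe 2, from a cDNA clone (chr11:44492539-44492598), read 11.32 and 11.45 in knock-out cells, against 10.90 and 11.84 in wild-type cells. Its ratios of 0.41 and -0.39 ran the other way round and gave a mean of 0.01 ± 0.19. On each array the Ebf1 probes thus pointed in opposite directions, and their spread between arrays was larger than either mean.

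Tcf3, which encodes the E2A proteins, stands in the array files under the older name Tcfe2a. The name Tcf3 in those files belongs to 2 probes of another gene, Tcf7l1, by their RefSeq accession, and these were left out. Tcf3 probe 1 read 12.73 and 12.47 in knock-out cells, against 12.88 and 12.38 in wild-type cells. Its ratios of -0.16 and 0.09 averaged -0.03 ± 0.14. Tcf3 probe 2 read 9.77 and 9.28 in knock-out cells, against 9.51 and 9.27 in wild-type cells. Its ratios were 0.26 and 0.01, with a mean of 0.14 ± 0.14. Both intervals included 0, running from -0.35 to 0.29 at probe 1 and from -0.18 to 0.46 at probe 2.

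Pou2af1, the B-cell coactivator of octamer factors, had the greatest spread between arrays of the 17 probes. It read 17.04 and 16.52 in knock-out cells, against 15.88 and 16.53 in wild-type cells. After loess the ratio was 1.15 on array 1 and -0.01 on array 2. The mean of 0.57 ± 0.24 thus came from array 1 alone in this processing (limma adjusted p = 0.50). Before normalization its Cy5 signal was 3.23 times the Cy3 signal on array 1 and 2.93 times on array 2. Cy5 was the brighter dye on both arrays at 14 of the 17 probes, with ratios from 0.728 to 3.23 on array 1 and from 1.25 to 4.17 on array 2, and the part of the dye in the value was not tested. All 4 of its channel readings were scaled up. The scanner program's log ratio, on the log2 scale, was 0.65 on array 1 and 0.25 on array 2 (mean 0.45). The deposited value table gave -0.02 on array 1 and 0.42 on array 2 (mean 0.20), so there the higher value came from array 2.

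Pou2f2, the octamer-binding factor itself, read 11.12 and 10.27 in knock-out cells, against 11.11 and 10.74 in wild-type cells. It was level on array 1 (0.01) and lower in knock-out cells on array 2 (-0.47). The mean was -0.23 ± 0.16, with a 95% interval of -0.59 to 0.13. No value of this probe was scaled up.

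After loess the ETS factors were both slightly higher in knock-out cells on both arrays, and neither passed the test. Spib, which is needed for B-cell receptor responses, read 14.83 and 15.07 in knock-out cells, against 14.74 and 14.82 in wild-type cells. Its ratios were 0.09 and 0.25, with a mean of 0.17 ± 0.14 (95% interval -0.14 to 0.48). Spi1, whose probe is named Sfpi1 in the files, read 9.04 and 9.59 in knock-out cells, against 8.79 and 9.43 in wild-type cells. Its ratios were 0.25 and 0.16, with a mean of 0.20 ± 0.13 (95% interval -0.10 to 0.51). Under median centring the means were -0.11 for Spib and -0.01 for Spi1. With the scanner program's log ratio Spib read -0.03 on array 1 and 0.30 on array 2. With the deposited value table it read -0.03 and 0.29.

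**Figure D4:**
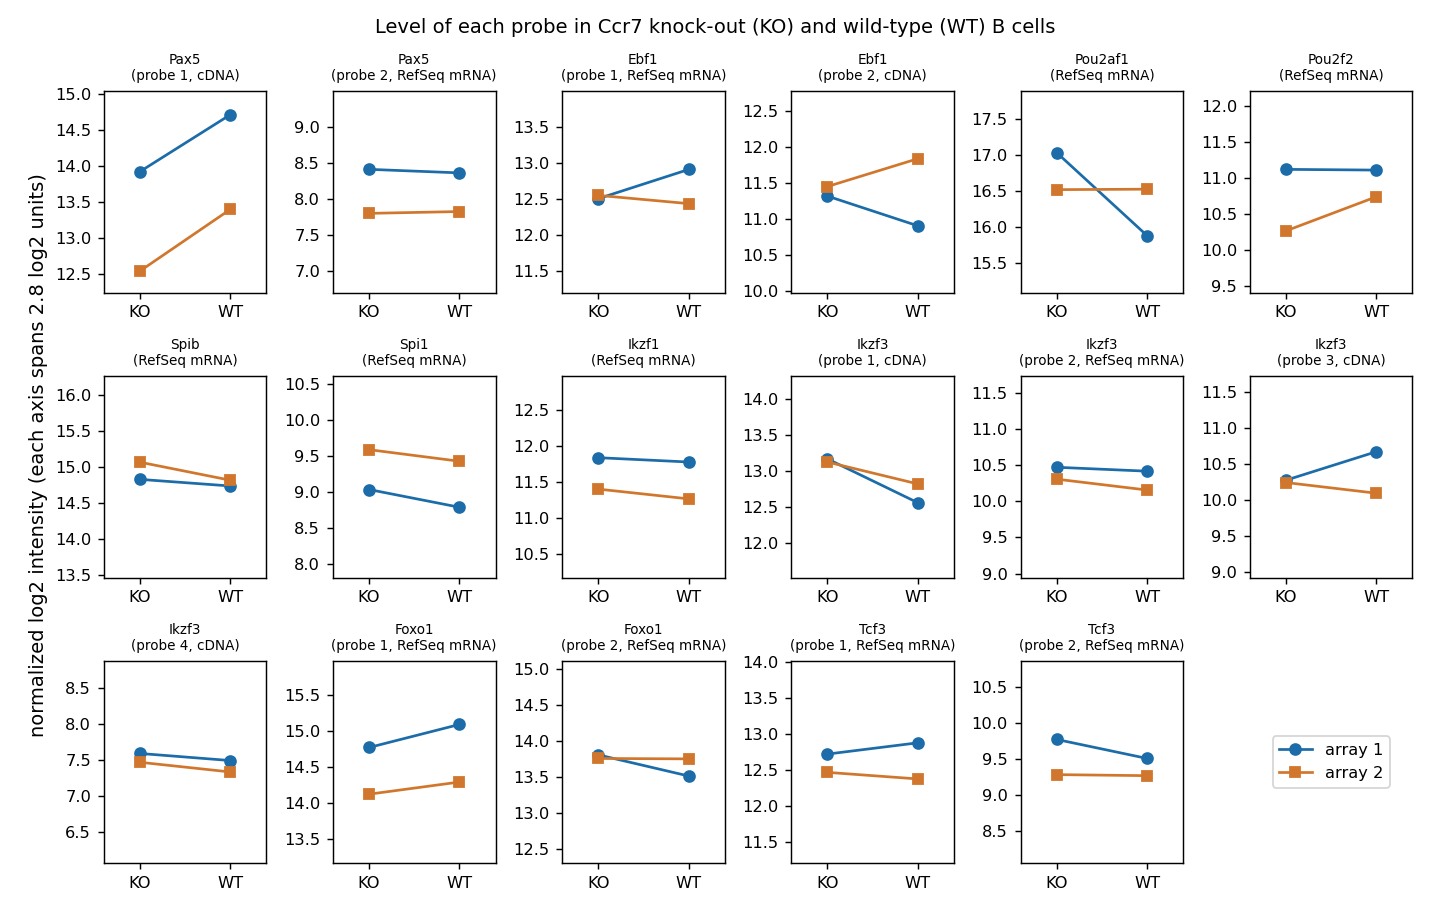
Normalized log2 intensity (y axis, each panel spanning 2.8 units around its own centre) of each probe in Ccr7 knock-out (left) and wild-type (right) B cells, with 1 line per array. The lines of Pax5 probe 1 run upward from knock-out to wild type on both arrays, while those of Ebf1 probe 1, Ebf1 probe 2 and Pou2af1 run in different directions on the 2 arrays.

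Ikzf3 (Aiolos), a zinc-finger factor of mature B cells, carried 4 probes. Ikzf3 probe 1, from a cDNA clone, read 13.17 and 13.13 in knock-out cells, against 12.57 and 12.83 in wild-type cells. This probe was higher in knock-out cells on both arrays, with ratios of 0.61 and 0.30. The mean was 0.46 ± 0.14 (95% interval 0.13 to 0.79), or 1.37-fold higher, and did not pass the correction (limma adjusted p = 0.34). Probe 2, from the RefSeq mRNA, averaged 0.10 (0.05 and 0.15). Probe 3, from a cDNA clone, averaged -0.12 (-0.40 and 0.15), and probe 4, from another cDNA, averaged 0.12 (0.10 and 0.13). The means of probes 2 to 4 thus lay between -0.12 and 0.12, below that of probe 1.

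Ikzf3 lies near the targeted gene. On chromosome 11 of build mm8 its probes are 630 to 677 kb from the Ccr7 probe, so sequence carried over from the donor strain around the targeted allele and the loss of Ccr7 cannot be told apart there. Ebf1 and Ikzf1 lie on the same chromosome at 54.1 Mb and 87.3 Mb from it. Ikzf1 (Ikaros), the family's founding member, read 11.84 and 11.40 in knock-out cells, against 11.78 and 11.27 in wild-type cells. Its ratios of 0.06 and 0.14 averaged 0.10 ± 0.13, with a 95% interval of -0.21 to 0.40.

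Foxo1 differed in sign between its probes. Foxo1 probe 1 read 14.78 and 14.13 in knock-out cells, against 15.10 and 14.30 in wild-type cells. It was lower in knock-out cells on both arrays (-0.32 and -0.17), with a mean of -0.24 ± 0.13 (95% interval -0.56 to 0.07). Foxo1 probe 2 read 13.81 and 13.76 in knock-out cells, against 13.52 and 13.75 in wild-type cells. Its ratios were 0.29 and 0.01 and averaged 0.15 ± 0.14. Of the 3733 genes with 2 probes, 419 (11.2%) had probes at least as far apart as those of Foxo1.

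**Figure D5:**
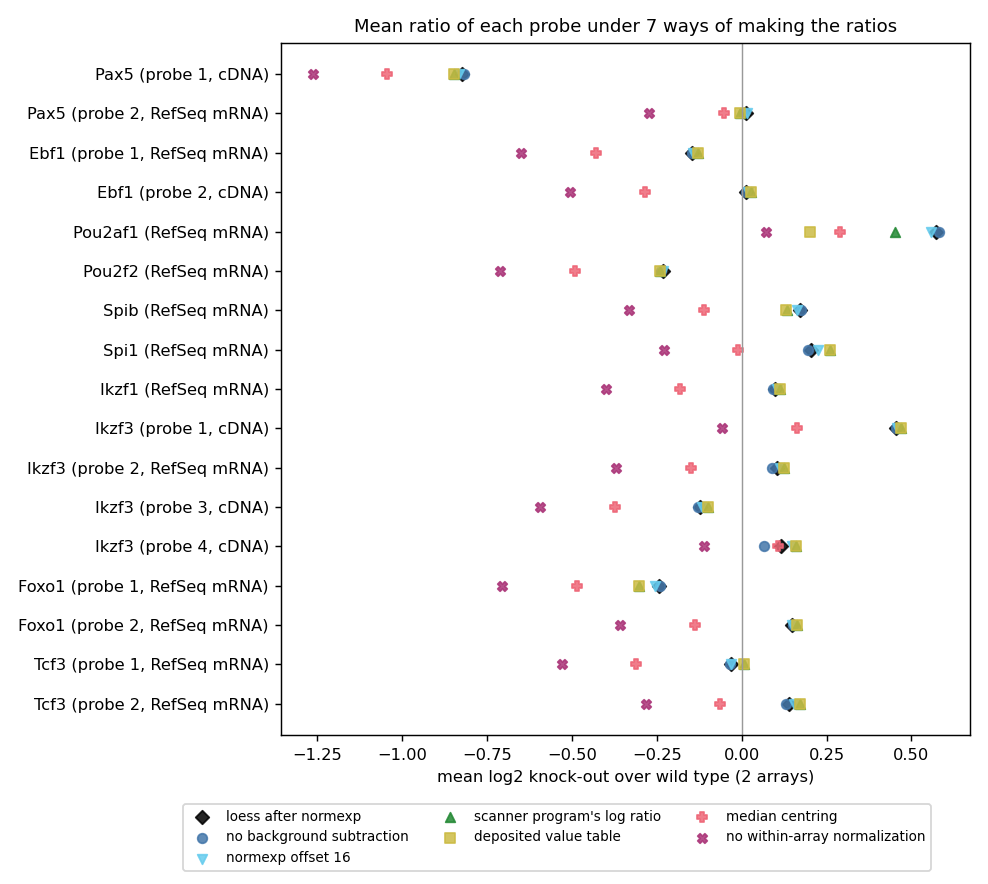
Mean log2 ratio over the 2 arrays (x axis) of each probe (y axis) under 7 ways of making the ratios. Median centring and no within-array normalization move most probes toward lower values, and Pax5 probe 1 stays below -0.8 under each of the 7.

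Genes that work with these factors were read from lists by the brightest probe of each gene. Over all 17679 genes, 13 were called higher (0.0735%) and 8 lower (0.0453%) in knock-out cells and the median ratio was -0.01. At an unadjusted p of 0.05, 558 genes (3.16%) were higher and 1054 (5.96%) lower, and the lists below are to be read against these shares. Of 23 genes that Pax5 or Ebf1 is known to bind and raise, all 23 were tested and none passed the adjusted threshold. At an unadjusted p of 0.05, 2 were higher and 2 lower, and the median was 0.07. Cd72, an inhibitory coreceptor of the B-cell receptor, had a mean of 0.54 ± 0.13 (limma adjusted p = 0.25), and Ciita, the switch for MHC class II genes, a mean of 0.47 ± 0.14. Lef1, a Wnt pathway factor, averaged -0.48 ± 0.19 and Vpreb3, a surrogate light chain family gene, -0.34 ± 0.14. Of the 23 genes, 17 had a scaled-up channel.

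Of 18 genes that Pax5 is known to repress, 15 were tested. The J chain gene Jchain, which joins secreted IgM, rose in knock-out cells (mean log2 ratio 1.81 ± 0.14, limma adjusted p = 0.0085), and no other gene of the list passed. Its ratios were 1.89 and 1.72. The call held under 7 of 11 alternatives and was lost under 4, with limma adjusted p of 0.0823 with the deposited value table, 0.140 with the scanner program's log ratio, 0.954 without within-array normalization and 1.00 with separate channels, while the mean stayed between 1.33 and 1.98. At an unadjusted p of 0.05, 4 were higher and 3 lower, with a median of -0.01. Xbp1, the plasma-cell secretory factor, averaged 0.70 ± 0.14, the chemokine Ccl3 -1.11 ± 0.15 and embigin (Emb), a cell adhesion protein, -0.62 ± 0.13.

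Of 22 FoxO target genes, 19 were tested and none passed the adjusted threshold, with 1 higher and 6 lower at an unadjusted p of 0.05 and a median of -0.09. Ccr7, a FoxO target and also the gene targeted in these animals, averaged -0.93 and is counted among the 6. Il7r (-0.49), another of the 6, is also on the list of T-cell markers. The DNA damage gene Gadd45a averaged -0.55 and the trafficking regulator Klf2 -0.51. Among 8 of 10 E-protein partners and inhibitors tested, none passed, 2 were lower at an unadjusted p of 0.05 and the median was -0.15. The corepressor Cbfa2t3 averaged -0.43 ± 0.13 and Id1, which blocks E proteins, -0.42 ± 0.14.

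Markers of other cells were present in the sorted samples and their part in the values above was not tested. All 10 T-cell markers were above background. On both arrays 5 of them were lower in knock-out cells and 2 higher, and 4 were lower at an unadjusted p of 0.05, namely Thy1 (mean log2 ratio -0.78), Cd3d (-0.60), Il7r (-0.49) and Cd8a (-0.39). A summed level is weighted to the brightest probe, here Lck (0.16). The sum, in the same unit, was 15.2 and 11.3 in knock-out cells, against 13.4 and 11.1 in wild-type cells. All 6 plasma-cell markers were measured. Jchain and Xbp1 belong to that list too, and Mzb1 averaged 0.17, while Sdc1 averaged -0.64, Prdm1 -0.25 and Irf4 -0.21. The sums, weighted to Mzb1, were 51.6 and 54.4 in knock-out cells, against 45.1 and 45.0 in wild-type cells. Of 8 myeloid markers, 6 were measured, and S100a8 and Csf3r were not above background. Their sums, weighted to Lyz2, were 9.54 and 6.15 in knock-out cells, against 5.06 and 9.38 in wild-type cells. The sum was thus higher in knock-out cells on array 1 and lower on array 2. On both arrays 1 marker was lower, Adgre1 (mean -0.71), which passed an unadjusted p of 0.05. S100a9 (mean 0.46) was higher in knock-out cells on array 1 (0.92) and level on array 2 (0.0003). Of 6 dendritic cell markers, 4 were measured (not Siglech and Ccl22), with sums of 1.04 and 1.54 in knock-out cells, against 0.93 and 1.43 in wild-type cells. Of 4 NK markers, 3 were measured (not Ncr1), with sums of 0.49 and 0.39 in knock-out cells, against 0.58 and 0.53 in wild-type cells. Klrd1 averaged -0.57 and passed an unadjusted p of 0.05, Nkg7 averaged -0.25 and Klrb1c 0.002. In pooled samples, fewer cells of a type and less RNA per cell cannot be told apart.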

How the data were processed

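Per the file headers, the authors scanned both arrays with 2 gains and quantified them with Agilent Feature Extraction 9.5.3.1, which deposited mean and local background intensity per spot and a log10 ratio of Cy5 over Cy3. The deposited value table holds log2 ratios. With the sign set as knock-out over wild type, they matched the scanner program's ratio within 0.001 at 42512 (array 1) and 42515 (array 2) of 43379 spots, and the median of each column was 0. The remaining 867 and 864 spots all had a scaled-up low-gain reading, and no source used here says how they were valued.

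From the intensity values, normexp (offset 50) removed the background and loess normalized each array (span 0.3, 4 iterations, 1639 control spots at weight 0) in limma 3.58.1 (R 4.3.3). Outlier spots were dropped and spots of a probe averaged. Probes well above background in the knock-out or the wild-type channel on both arrays were kept: 25966 of 41174. Well above background were 68.2% and 58.4% of spots in the knock-out channel and 63.1% and 68.8% in the wild-type channel, and none was saturated. lmFit and eBayes used +1 for knock-out in Cy5 and -1 for Cy3, which leaves 1 residual degree of freedom plus 6.99 prior ones, and the number of arrays limits the precision. P-values are two-sided, adjusted by Benjamini-Hochberg over all probes, with a threshold of 0.05. Levels were scaled between arrays by Aquantile. The 2 arrays pool different samples. The SE and p-values measure the spread between the 2 arrays, and so cover only 2 pools per genotype, moderated toward the variance of all probes tested. That spread holds both the difference between pools and any dye effect of a probe, which the design does not separate. Pax5 probe 1 had a spread between arrays of 0.07 and an SE of 0.13, and Pou2af1 had 1.16 and 0.24. Probes were matched by name and checked by RefSeq accession. The named genes are the 10 factors with all their probes and, from each list, the genes past the threshold or up to 4 of the largest differences, except a gene whose result is left out here. The genes, lists and probe rule were chosen with earlier results of these data known. The alternatives tried are described in the closing section.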

Additional observations from a re-analysis of the deposited data

How the results depend on the processing

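The number of member probes past the adjusted limma threshold was 0 under 10 of 11 alternatives. It was 1 (Pax5 probe 1) with an intensity trend and robust prior. Without scaled-up probes only 13 member probes were tested, and Pax5 probe 1 was not among them. At an unadjusted p of 0.05 the number was 0 to 3. Over all probes, against 31 calls, the count was 3 without background subtraction, 14 with median centring, 118 without scaled-up probes and 124 with the trend and robust prior. It was 0 with the scanner program's log ratio, without within-array normalization, with the deposited table and with separate channels, where 2352, 168, 2468 and 155 probes passed unadjusted. Against 6 member genes with 1 sign on both arrays, 3 had it under median centring and 2 without normalization. Over all 17679 genes the count fell too, from 9585 to 7278 under median centring and to 5981 without normalization. The ratios are taken within arrays, so the fit reported is paired by array; the separate-channel fit, with no replicate block, is the unpaired alternative and gave 0 calls and 155 probes past unadjusted p. With 1 array left out, ratios are values with no test. Reversed means were, for Pax5 probe 2, -0.0041 with the scanner ratio and the deposited table, -0.053 with median centring and -0.27 without normalization, and for Tcf3 probe 1, 0.0076 with the scanner ratio and the deposited table. Under median centring and without normalization the reversed means were, in that order, -0.29 and -0.51 for Ebf1 probe 2, -0.11 and -0.33 for Spib, -0.0096 and -0.23 for Spi1, -0.18 and -0.40 for Ikzf1, -0.15 and -0.37 for Ikzf3 probe 2, -0.14 and -0.36 for Foxo1 probe 2 and -0.063 and -0.28 for Tcf3 probe 2. Ikzf3 probe 1 (-0.058) and probe 4 (-0.11) reversed only without normalization. The median of the probes tested moved in the same settings. The cause was not tested.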

Other observations

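Relatives of the factors were read by the brightest probe of each gene. Of 19 family members 16 were measured, none passed the adjusted limma threshold, and the median ratio was 0.04; 1 was higher and 1 lower at an unadjusted p of 0.05, against 3.16% and 5.96% of all genes. Ebf3, a paralogue of Ebf1, averaged 0.40 ± 0.15 (ratios 0.19 and 0.60). Gabpa, an ETS factor, averaged -0.45 ± 0.15 (-0.64 and -0.25). Fli1, another ETS factor, averaged -0.32 ± 0.14, and Foxo3 averaged -0.27 ± 0.14.

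Of 26 other transcription factors of mature B cells 25 were measured and none passed the adjusted threshold, with 3 higher and 5 lower at an unadjusted p of 0.05 (3.16% and 5.96% of all genes) and a median of -0.14. Gfi1, a zinc-finger repressor, averaged -0.78 ± 0.15 (-0.56 and -0.997), and Rel, an NF-kappaB subunit, averaged -0.74 ± 0.17 (-1.03 and -0.45). Xbp1 averaged 0.70 ± 0.14 (0.55 and 0.85) and Tbx21 (T-bet) 0.57 ± 0.14 (0.66 and 0.48), both higher in knock-out cells. Tbx21 is the next in size after the 4 largest. Myb, a proliferation and progenitor factor, averaged -0.88 ± 0.27, with ratios of -0.22 and -1.54.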
